A study of Homo sapiens with 6 samples.

Results

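The YAP, Hippo and shear stress genes are 36 genes taken by symbol, older synonyms included, from the 17446 genes measured on 6 arrays of human kidney organoids. They are 7 targets of YAP and TEAD, 9 genes of the Hippo kinase cascade and its upstream regulators, 6 genes for YAP, TAZ and the TEAD factors, 3 KLF transcription factors, 3 mechanosensitive channels, 3 enzymes of the oxidative stress response, 2 cytochrome P450 enzymes, and 3 genes of prostanoid synthesis and thrombomodulin. All 36 were on the array and all 36 were among the 16364 genes tested. Of them, 34 lay above background on all 6 arrays. The exceptions were CYP1A1, above background on the flow arrays only, and PTGS2, below it on the PKHD1+/- forskolin array.

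The Hippo pathway is a chain of kinases that restrains growth. NF2 and WWC1 at the cell cortex activate the kinases STK3 and STK4 with their scaffold SAV1, which activate LATS1 and LATS2, and these phosphorylate YAP and TAZ so that they stay in the cytoplasm. Unphosphorylated YAP and TAZ enter the nucleus, bind TEAD factors and switch on targets such as CCN1 and CCN2, and they respond to cell stretch, matrix stiffness and flow. Fluid shear stress is also known, best in endothelium, to induce KLF2, KLF4, HMOX1, PTGS2 and thrombomodulin, and cyclic AMP, which forskolin raises, is known to activate LATS kinases and inhibit YAP. YAP activity is set largely by phosphorylation, which an RNA array does not measure.

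The organoids came from H9, a human embryonic stem cell line in wide use, and carried either 2 disrupted copies (PKHD1-/-, clone C51) or 1 (PKHD1+/-, clone C9) of PKHD1, the gene of autosomal recessive polycystic kidney disease. No unedited line was analysed here, so every array carries a PKHD1 mutation, and with 1 clone for each genotype, clone and genotype cannot be told apart. Per the labels, the flow organoids lay on an engineered gelatin and fibrin matrix and received medium at 4.27 ml/min starting on day 15, the forskolin organoids were kept in 20 µM forskolin, which activates adenylyl cyclase, starting on day 14, and the static organoids lay on the matrix without flow. All were taken on day 35, with 1 array for each genotype and culture, and the labels do not place the forskolin organoids on the matrix. The whole organoid was the sample, so fewer cells of a type and less RNA per cell cannot be told apart.

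Levels are given as normalized log2 intensity, which includes an added offset and therefore understates the fold change of dim genes. Differences are log2 differences ± SE from 1 limma fit over all genes with genotype and culture as factors, p-values are adjusted over the 16364 genes (Benjamini-Hochberg), and the threshold is 0.05. With 1 array for each combination, the error is what genotype and culture leave over, so p-values measure only the spread between these arrays. The median spot lay 16.5 and 21.2 intensity units above the blank spots on the forskolin arrays, against 33.6 to 58.3 units on the other 4. The forskolin arrays were also scanned apart from the other 4, per the deposited files, so forskolin, scan and matrix cannot be told apart. The PKHD1-/- flow array correlated across genes at 0.977 with the PKHD1+/- static array and at 0.971 with the PKHD1-/- static array. The array of PKHD1+/- flow correlated at 0.981 with the PKHD1-/- static array and at 0.974 with the PKHD1+/- static array. PKHD1 itself read 7.37, 7.33 and 7.35 in PKHD1-/- organoids in flow, forskolin and static culture, against 7.41, 7.24 and 7.49 in PKHD1+/- organoids. Where its probes lie relative to the mutation is not known, so these levels do not test the genotypes. Of the kidney markers on the array, 8 of 8 podocyte genes, 8 of 9 proximal tubule genes and 5 of 9 distal tubule and collecting duct genes were above background on all 6 arrays, beside 14 of 16 skeletal and heart muscle genes and 9 of 10 cartilage genes.

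**Figure D1:**
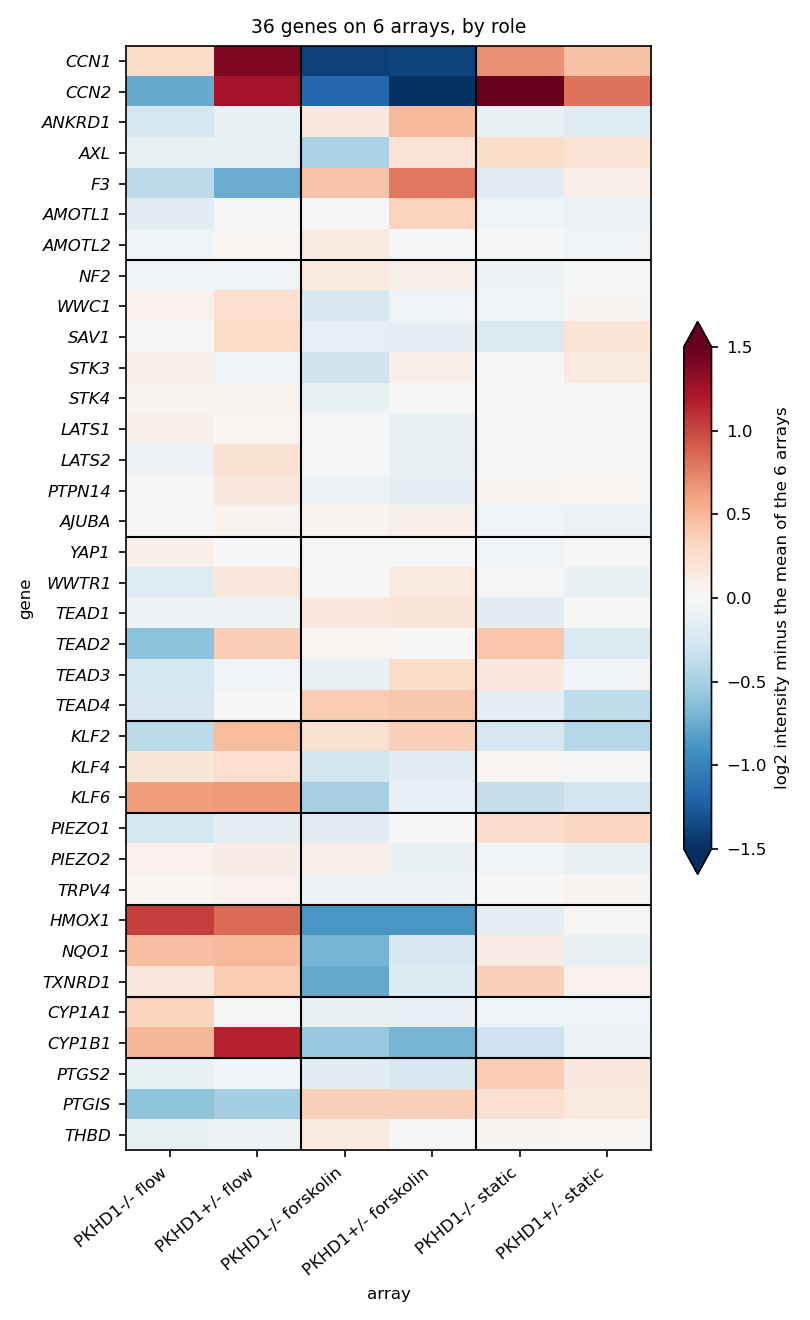
The heat map shows each gene's log2 intensity on each array minus its mean over the 6 arrays, with genes in rows by role, arrays in columns and colour running from -1.5 to 1.5. CCN1 and CCN2 are low on both forskolin arrays, HMOX1 and KLF6 are high on both flow arrays, and the Hippo kinases are pale throughout.

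Promoter sequences are shown for CCN2 and ANKRD1, YAP and TEAD targets whose forskolin differences had opposite signs, and for NQO1 and CYP1A1, which stand for the antioxidant and aryl hydrocarbon receptor responses. Each runs from 250 bases before to 50 bases after the annotated start in RefSeq (GRCh38.p14), 5′ to 3′ on the gene's own strand. RefSeq promoters were at hand for 27 of the 36 genes. The 9 without one were CCN1, STK3, TEAD1, TEAD4, TRPV4, HMOX1, CYP1B1, PTGIS and THBD. CCN2 lies on the minus strand at chr6:131951323-131951622 and ANKRD1 on the minus strand at chr10:90921038-90921337. Capitals mark GGAATG, the core of the TEAD motif, searched on both strands.
CCN2: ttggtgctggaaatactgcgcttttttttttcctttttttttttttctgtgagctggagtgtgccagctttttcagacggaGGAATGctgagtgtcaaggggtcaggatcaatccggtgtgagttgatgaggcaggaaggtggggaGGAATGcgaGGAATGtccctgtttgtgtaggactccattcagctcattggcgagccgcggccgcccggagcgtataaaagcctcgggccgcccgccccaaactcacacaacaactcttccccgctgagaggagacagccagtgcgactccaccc
ANKRD1: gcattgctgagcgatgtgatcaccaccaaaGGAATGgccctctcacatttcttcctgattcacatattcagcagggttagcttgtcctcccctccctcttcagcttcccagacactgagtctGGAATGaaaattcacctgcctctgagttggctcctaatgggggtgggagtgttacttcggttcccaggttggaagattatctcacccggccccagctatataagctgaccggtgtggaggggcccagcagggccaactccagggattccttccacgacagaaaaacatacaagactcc
The CCN2 promoter holds the letters 3 times, starting 169, 104 and 95 bases before the start, and the ANKRD1 promoter holds them 2 times, at 220 and 128 bases before it. In the NQO1 promoter, on the minus strand at chr16:69726511-69726810, capitals mark the antioxidant core TGANNNNGC as read on the opposite strand. In the CYP1A1 promoter, on the minus strand at chr15:74725479-74725778, they mark GCGTG, the core bound by the aryl hydrocarbon receptor.
NQO1: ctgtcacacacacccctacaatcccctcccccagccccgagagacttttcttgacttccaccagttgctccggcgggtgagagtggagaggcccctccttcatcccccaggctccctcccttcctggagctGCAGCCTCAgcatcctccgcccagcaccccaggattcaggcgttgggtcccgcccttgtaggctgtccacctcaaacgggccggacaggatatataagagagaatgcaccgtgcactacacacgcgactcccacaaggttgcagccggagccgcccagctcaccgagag
CYP1A1: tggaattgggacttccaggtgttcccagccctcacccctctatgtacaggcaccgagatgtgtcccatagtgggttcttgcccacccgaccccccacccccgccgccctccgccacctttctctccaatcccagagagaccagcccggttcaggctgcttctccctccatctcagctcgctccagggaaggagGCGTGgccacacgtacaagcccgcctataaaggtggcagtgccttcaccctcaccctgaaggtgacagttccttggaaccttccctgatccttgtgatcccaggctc
Over the 35 promoters of the 27 genes, GGAATG was found in 8 (22.9%), against 14.0% of all 35116 promoters of that length. GCGTG was found in 13 (37.1%), against 36.5% of all, and TGANNNNGC in 11 (31.4%), against 41.8% of all. No GGAATG match overlapped another motif, and 1 GCGTG match at a second start of AXL overlapped a TGANNNNGC match. A match describes letters only.

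**Figure D2:**
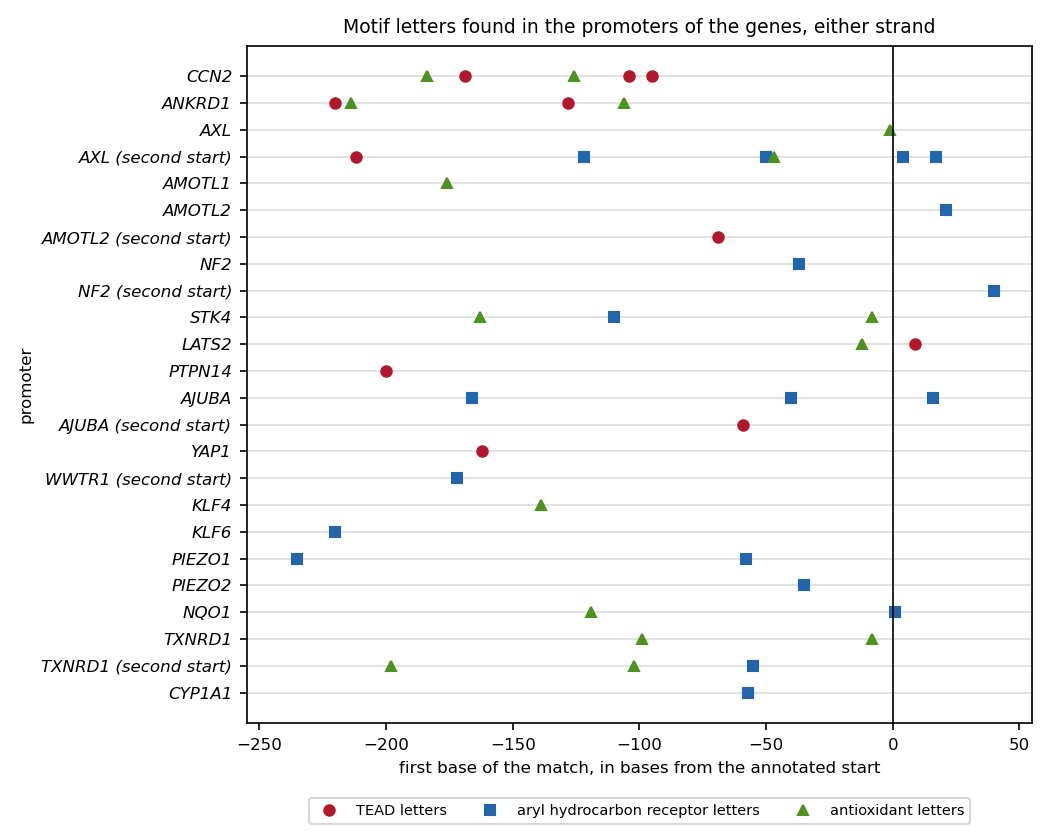
The plot places each motif match by its first base, in bases from the annotated start (x axis), for the promoters with at least 1 match, 1 row each. TEAD letters (circles) fall at 169, 104 and 95 bases before the CCN2 start, and most other promoters hold 1 TEAD match or none.

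Among the targets, CCN1 and CCN2, secreted matrix proteins that are the usual readouts of YAP activity, were lower with forskolin in both genotypes and differed between the genotypes under flow. CCN1 read 8.33 in PKHD1-/- flow and 9.46 in PKHD1+/- flow, 6.66 in PKHD1-/- forskolin and 6.67 in PKHD1+/- forskolin, against 8.74 in PKHD1-/- static and 8.49 in PKHD1+/- static. Both forskolin arrays lie below the other 4, while the flow arrays straddle the static ones. The forskolin difference was -1.95 ± 0.39 (SE, n = 2 pairs), about 3.87-fold lower, with an adjusted p of 0.109 in limma's moderated test. CCN2 read 9.64 in PKHD1-/- flow and 11.64 in PKHD1+/- flow, 9.21 in PKHD1-/- forskolin and 8.76 in PKHD1+/- forskolin, against 11.88 in PKHD1-/- static and 11.21 in PKHD1+/- static. The forskolin arrays were again the lowest, and the PKHD1-/- flow array came close to them. The forskolin difference of CCN2 was -2.56 ± 0.79 (adjusted p = 0.187), with single-genotype values of -2.66 in PKHD1-/- and -2.45 in PKHD1+/-. In the authors' value table, CCN1 was 27.1 and 23.9 with forskolin, against 205 and 178 in static culture (PKHD1-/- and then PKHD1+/- in each pair). CCN1 passed the threshold in 4 of the 15 alternatives and CCN2 in 2, with differences from -2.91 to -1.54 and from -3.28 to -1.84.

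Under flow, both genes had responses of opposite sign in the 2 genotypes. The flow response of CCN2 was -2.24 in PKHD1-/- organoids and 0.43 in PKHD1+/- organoids, and that of CCN1 was -0.41 in PKHD1-/- organoids and 0.97 in PKHD1+/- organoids. These are differences between single arrays and the opposition was not tested, so genotype and the spread between single arrays cannot be told apart. Flow responses in the 2 genotypes correlated at 0.05 across the 16364 genes tested and at 0.31 across the 36. Each flow array also correlated more closely with the static array of the other genotype than with that of its own. Over all genes tested, 1153 (7.05%) had flow responses of opposite sign and of at least 0.25 in both genotypes. A few bright smooth muscle and matrix genes were also low on the PKHD1-/- flow array. The flow median, fitted over both genotypes, was however -0.04 over 7 smooth muscle markers (1 above 0, 6 below). It was -0.12 over 10 stroma markers (4 above, 6 below), and neither median describes the PKHD1-/- flow array alone. The summed intensity of the smooth muscle markers, which the brightest dominate, was 2116.3 in PKHD1-/- flow and 6095.1 in PKHD1+/- flow, against 8862.6 in PKHD1-/- static and 8217.5 in PKHD1+/- static. That of the 10 stroma markers was 18135 in PKHD1-/- flow and 25762 in PKHD1+/- flow, against 27884 in PKHD1-/- static and 19853 in PKHD1+/- static. TAGLN, a smooth muscle actin-binding protein, read 8.18 in PKHD1-/- flow and 11.01 in PKHD1+/- flow, against 11.52 in PKHD1-/- static and 10.64 in PKHD1+/- static, and COL1A1, a fibrillar collagen of stroma, read 9.26 in PKHD1-/- flow and 12.51 in PKHD1+/- flow, against 12.74 in PKHD1-/- static and 10.47 in PKHD1+/- static. TAGLN and COL1A1 are 1 gene each of these lists and do not stand for the other markers. The part of smooth muscle and stroma cells in the CCN2 values was not tested.

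**Figure D3:**
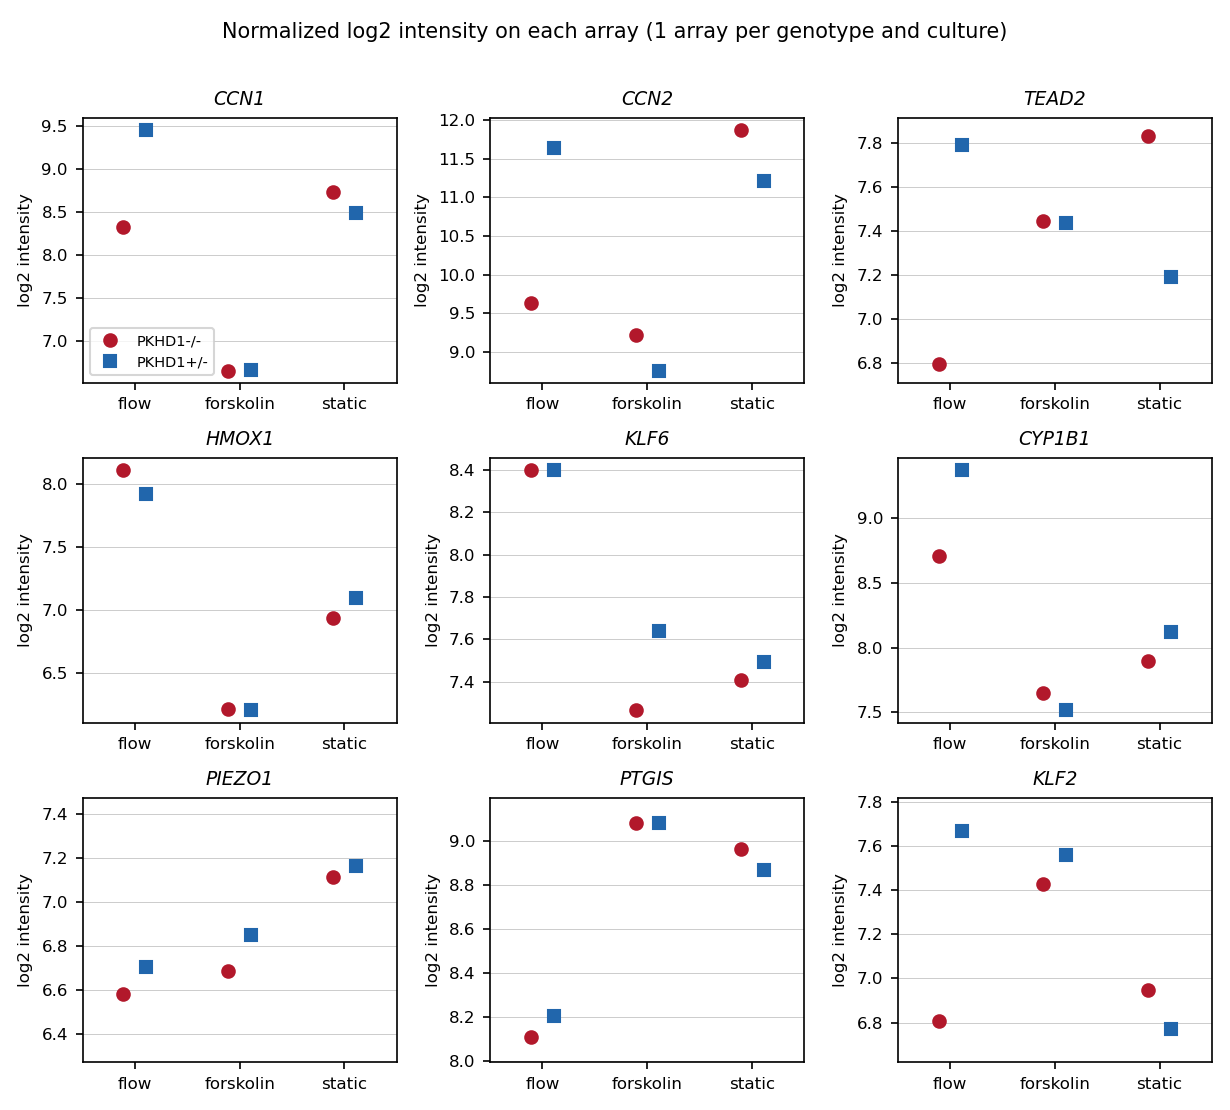
The panels show the normalized log2 intensity (y axis) of 9 genes on each array, in flow, forskolin and static culture (x axis), with circles for PKHD1-/- and squares for PKHD1+/-, 1 array for each point. CCN1, CCN2 and TEAD2 separate the genotypes under flow, whereas the 2 flow points of HMOX1, KLF6, PIEZO1 and PTGIS lie together and apart from static culture.

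The other 5 targets had smaller forskolin differences, and not all had the negative sign. ANKRD1, a nuclear ankyrin repeat protein, read 6.51 in PKHD1-/- forskolin and 6.83 in PKHD1+/- forskolin, against 6.25 in PKHD1-/- static and 6.17 in PKHD1+/- static. It was therefore higher with forskolin in both pairs, by 0.46 ± 0.12 (adjusted p = 0.153), the opposite sign to CCN2. F3, tissue factor, which starts blood clotting, read 7.20 in PKHD1-/- flow and 6.87 in PKHD1+/- flow, 8.04 in PKHD1-/- forskolin and 8.40 in PKHD1+/- forskolin, against 7.45 in PKHD1-/- static and 7.69 in PKHD1+/- static. Its 3 cultures do not overlap, with a flow difference of -0.53 ± 0.20 (adjusted p = 0.886) and a forskolin difference of 0.65 ± 0.20 (adjusted p = 0.193). AXL, a receptor tyrosine kinase, was lower under flow by -0.38 in PKHD1-/- and -0.32 in PKHD1+/-, and with forskolin it differed by -0.74 in PKHD1-/- and 0.02 in PKHD1+/-. AMOTL1 and AMOTL2, junction proteins that bind YAP, had flow differences of -0.01 and 0.01 and forskolin differences of 0.25 and 0.09.

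Of 14 other genes commonly listed as targets of YAP, none passed the threshold under flow or with forskolin in limma's test, while 1 was higher and 2 lower under flow, and 1 higher and 5 lower with forskolin, at an unadjusted p under 0.05. At that p, 3.29% of all genes tested were higher and 2.67% lower under flow, and 11.8% were higher and 11.4% lower with forskolin. Their flow median was -0.00, with 7 above 0 and 7 below, against -0.01 over all genes tested. Their forskolin median was -0.21, with 11 of 14 below 0, against 0.00 over all genes tested. The 2 with the largest flow differences were IGFBP3, which binds insulin-like growth factors, at -0.70 ± 0.09, and FJX1, related to a Golgi kinase of the fly, at -0.57 ± 0.18. With forskolin they were CRIM1, a transmembrane binder of growth factors, at -0.92 ± 0.23, and FJX1, at -0.66 ± 0.18.

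The 9 genes of the Hippo cascade and its regulators were dim and had small fitted differences on the scale with the offset of 50. Their levels ran from 5.80 to 6.97 over all arrays, their flow differences from -0.05 to 0.17 and their forskolin differences from -0.18 to 0.17. The kinase LATS1 read 6.22 and 6.17 in flow and 6.10 and 6.03 in forskolin, against 6.15 and 6.16 in static culture, and LATS2 read 6.26 and 6.57, 6.33 and 6.24, against 6.33 and 6.36 (PKHD1-/- and then PKHD1+/- in each pair). The interval of the LATS1 difference (95%, from limma's spread) ran from -0.14 to 0.22 for flow and from -0.27 to 0.09 for forskolin, and that of LATS2 from -0.29 to 0.43 and from -0.42 to 0.30. Forskolin differences of NF2, a cortical tumour suppressor, and AJUBA, a LIM protein that inhibits LATS, were 0.17 ± 0.06 and 0.13 ± 0.07, and those of STK3 and STK4 were -0.18 ± 0.15 and -0.05 ± 0.06. SAV1, their scaffold, stood apart by genotype in 2 of 3 cultures, at 6.67 and 6.46 in PKHD1-/- flow and static organoids, against 6.97 and 6.89 in PKHD1+/- flow and static organoids. PTPN14, a phosphatase that binds YAP, had a flow difference of 0.04 and a forskolin difference of -0.14. These sizes depend on the scale. Over 15 alternatives the forskolin difference ran from 0.13 to 0.86 for NF2, from -0.71 to 0.30 for PTPN14 and from -0.48 to 0.48 for STK4. Under 75th percentile scaling NF2 (0.58, adjusted p = 0.026) and STK4 (0.48, adjusted p = 0.027) passed the threshold, STK4 with the opposite sign. In the authors' value table NF2 was 11.6 in PKHD1-/- forskolin and 7.86 in PKHD1+/- forskolin, against 5.01 in PKHD1-/- static and 5.57 in PKHD1+/- static, and PTPN14 was 8.09 and 4.44 with forskolin, against 10.2 and 9.36 in static culture.

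WWC1, also known as KIBRA, was the 1 gene of the 36 with an unadjusted genotype p under 0.05, a share of 2.78%, against 1.30% of all genes tested that were lower in PKHD1-/- at that p. It read 6.77 in PKHD1-/- flow, 6.46 in PKHD1-/- forskolin and 6.64 in PKHD1-/- static, against 6.96, 6.66 and 6.75 in PKHD1+/- organoids of the same cultures. It was lower in PKHD1-/- in 3 of 3 pairs, by -0.16 ± 0.05 (adjusted p = 1.00), although its level also differed between cultures so that the genotypes overlap. Its 2 probes disagreed in static culture, where the first read 6.70 in PKHD1-/- and 6.997 in PKHD1+/- and the other 6.58 and 6.50. They also disagreed with forskolin, at 6.27 and 6.85 by the first and 6.66 and 6.46 by the other, in the same order. Under flow both were lower in PKHD1-/-, at 7.04 against 7.27 and at 6.50 against 6.65. The lower level in 3 of 3 pairs therefore holds for the first probe only.

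Among 25 other Hippo genes tested, SCRIB, a polarity protein of the basolateral membrane, was the 1 that passed the threshold with forskolin, against 1.12% of all genes. It read 8.68 in PKHD1-/- forskolin and 8.66 in PKHD1+/- forskolin, against 7.36 in PKHD1-/- static and 7.18 in PKHD1+/- static, so it rose with forskolin by 1.40 ± 0.07 (adjusted p = 0.042). With any 1 of the 6 arrays left out, no gene on the array was called with forskolin, and this holds for each call named below. The median of the 25 was 0.07 under flow and -0.09 with forskolin. With forskolin 7 of the 25 were above 0 and 18 below. At an unadjusted p under 0.05, 5 of the 25 were higher and 4 lower with forskolin (11.8% and 11.4% of all genes). None of them passed under flow, where 2 were higher and 0 lower at an unadjusted p under 0.05 (3.29% and 2.67% of all genes), and the largest differences were 0.24 ± 0.06 for LIMD1, a LIM protein that binds LATS, and 0.23 ± 0.28 for VGLL4, a TEAD cofactor.

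YAP1 and WWTR1, which encodes TAZ, had no detectable difference in limma's test, apart from 1 scaling. YAP1 read 6.03 and 5.94 in flow and 5.96 and 5.92 in forskolin, against 5.90 and 5.95 in static culture (PKHD1-/- and then PKHD1+/- in each pair). The dimmest probes counted as above background read 5.73 to 5.83, so YAP1 lay just above that limit and its fold changes are compressed by the offset. Intervals of its difference ran from -0.14 to 0.25 for flow and from -0.18 to 0.21 for forskolin. With each array scaled to its 75th percentile, the forskolin difference of YAP1 was 0.51 (adjusted p = 0.028), at a shift of 0.31 in the median of all genes. WWTR1 read 6.53 and 6.89 in flow and 6.72 and 6.87 in forskolin, against 6.69 and 6.62 in static culture, in the same order, with flow and forskolin differences of 0.06 ± 0.13 and 0.14 ± 0.13.

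The TEAD factors, which bring YAP and TAZ to DNA, had no common direction. TEAD4 read 7.56 in PKHD1-/- forskolin and 7.58 in PKHD1+/- forskolin, against 7.03 in PKHD1-/- static and 6.80 in PKHD1+/- static. Both forskolin arrays exceed every other array, and the difference was 0.65 ± 0.14 (adjusted p = 0.119). TEAD1 was likewise higher on both forskolin arrays, by 0.25 ± 0.07 (adjusted p = 0.170). TEAD2 read 6.80 in PKHD1-/- flow and 7.79 in PKHD1+/- flow, 7.45 in PKHD1-/- forskolin and 7.43 in PKHD1+/- forskolin, against 7.83 in PKHD1-/- static and 7.19 in PKHD1+/- static. Its flow response was thus -1.03 in PKHD1-/- and 0.60 in PKHD1+/-, the same signs as for CCN1 and CCN2. TEAD3 had a flow response of -0.43 in PKHD1-/- and -0.00 in PKHD1+/-, and a forskolin response of -0.26 in PKHD1-/- and 0.31 in PKHD1+/-.

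**Figure D4:**
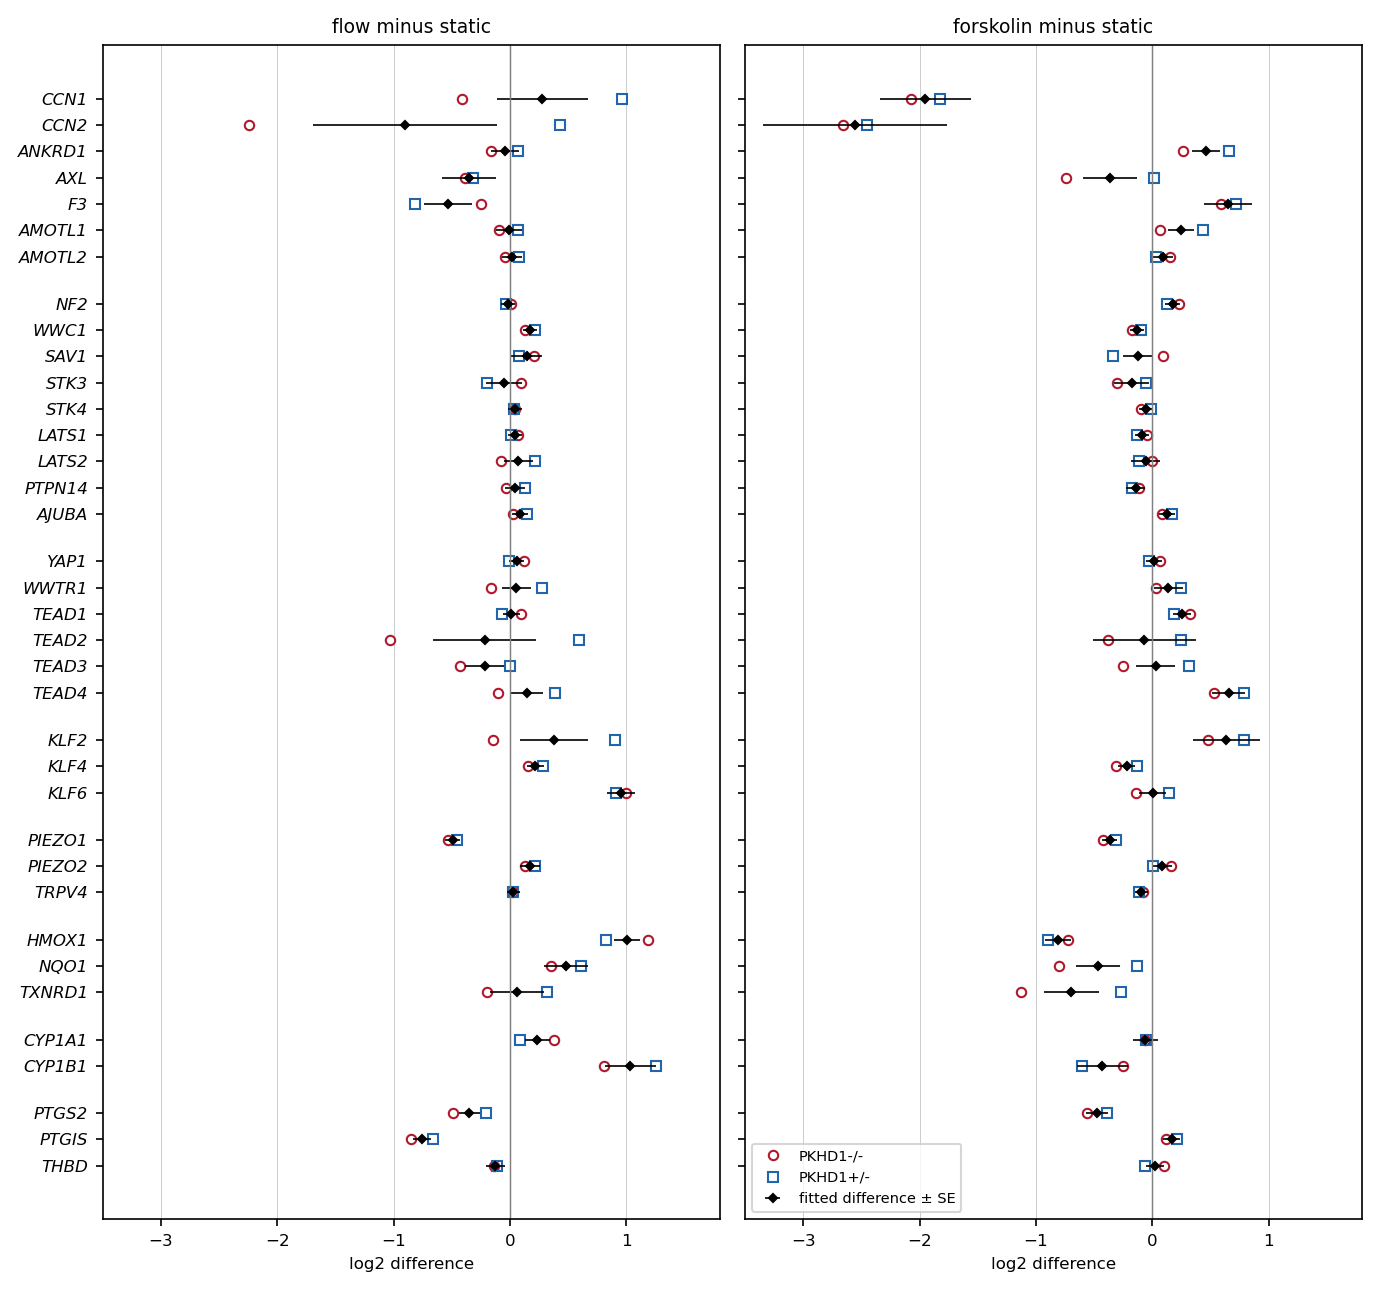
Log2 differences from static culture (x axis) are shown for the 36 genes (rows, by role) under flow on the left and with forskolin on the right, with open circles for PKHD1-/-, open squares for PKHD1+/- and diamonds for the fitted difference ± SE. CCN1 and CCN2 lie far below 0 with forskolin in both genotypes, and under flow their genotypes fall on opposite sides of 0.

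The KLF factors are zinc finger proteins, of which KLF2 and KLF4 are known to be induced by laminar flow in endothelium. Under flow KLF4 and KLF6 had the positive sign in both genotypes and KLF2 in PKHD1+/- only. Of all genes tested, 21.3% had the positive sign in both. KLF6 read 8.40 in PKHD1-/- flow and 8.40 in PKHD1+/- flow, 7.26 in PKHD1-/- forskolin and 7.64 in PKHD1+/- forskolin, against 7.41 in PKHD1-/- static and 7.49 in PKHD1+/- static. Both flow arrays stand clear of the other 4, at a flow difference of 0.95 ± 0.12, about 1.93-fold (adjusted p = 0.490). In the authors' value table KLF6 was 153 in PKHD1-/- flow and 159 in PKHD1+/- flow, against 66.0 in PKHD1-/- static and 72.0 in PKHD1+/- static. KLF4 read 6.52 in PKHD1-/- flow and 6.59 in PKHD1+/- flow, 6.06 in PKHD1-/- forskolin and 6.17 in PKHD1+/- forskolin, against 6.37 in PKHD1-/- static and 6.31 in PKHD1+/- static. It was higher under flow by 0.22 ± 0.07 (adjusted p = 0.830) and differed with forskolin by -0.22 ± 0.07 (adjusted p = 0.208), which became 0.18 under the same 75th percentile scaling. KLF2, known from endothelium as a laminar shear factor, overlapped between flow and static culture, while both of its forskolin arrays were above both static ones. It read 6.81 in PKHD1-/- flow and 7.67 in PKHD1+/- flow, 7.43 in PKHD1-/- forskolin and 7.56 in PKHD1+/- forskolin, against 6.95 in PKHD1-/- static and 6.77 in PKHD1+/- static, so its flow response was -0.14 in PKHD1-/- and 0.90 in PKHD1+/-. The forskolin difference was 0.63 ± 0.29 (adjusted p = 0.311), from 0.30 to 1.02 over 15 alternatives. Without the PKHD1+/- flow array the flow difference of KLF2 was -0.06, against 0.38 ± 0.29 with it.

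Of the mechanosensitive channels, PIEZO1, a stretch-gated cation channel, was lower under flow and with forskolin than in static culture. It read 6.58 in PKHD1-/- flow and 6.71 in PKHD1+/- flow, 6.69 in PKHD1-/- forskolin and 6.85 in PKHD1+/- forskolin, against 7.11 in PKHD1-/- static and 7.16 in PKHD1+/- static. Both static arrays lie above the other 4, with differences of -0.49 ± 0.06 for flow (adjusted p = 0.490) and -0.37 ± 0.06 for forskolin (adjusted p = 0.094), which share the static arrays. Its relative PIEZO2 ranged from 6.46 to 6.68 over the 6 arrays, and 1 of its 2 probes was near background, which narrows that range. The other probe read 7.46 and 7.52 in flow and 7.53 and 7.12 in forskolin, against 7.22 and 7.11 in static culture (PKHD1-/- and then PKHD1+/- in each pair). TRPV4, an osmotic and flow-sensitive calcium channel of tubule cells, ranged from 5.98 to 6.13.

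HMOX1, which breaks down heme, had 1 of the clearest flow patterns of the 36. It read 8.11 in PKHD1-/- flow and 7.92 in PKHD1+/- flow, 6.21 in PKHD1-/- forskolin and 6.20 in PKHD1+/- forskolin, against 6.93 in PKHD1-/- static and 7.09 in PKHD1+/- static. The 3 cultures did not overlap, with flow highest and forskolin lowest. The flow difference was 1.00 ± 0.11, about 2.00-fold (adjusted p = 0.474), and the forskolin difference was -0.81 ± 0.11 (adjusted p = 0.073). In the authors' value table, which carries no offset, HMOX1 was 121 in PKHD1-/- flow and 109 in PKHD1+/- flow, 12.0 in PKHD1-/- forskolin and 9.30 in PKHD1+/- forskolin, against 38.8 in PKHD1-/- static and 46.3 in PKHD1+/- static, ratios of 3.12 and 2.35 for flow. The forskolin difference of HMOX1 passed the threshold in 5 of 15 alternatives, and its flow difference in 0 of 16.

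NQO1, a quinone reductase and a target of the factor NRF2, read 8.16 in PKHD1-/- flow and 8.19 in PKHD1+/- flow, 7.002 in PKHD1-/- forskolin and 7.45 in PKHD1+/- forskolin, against 7.81 in PKHD1-/- static and 7.58 in PKHD1+/- static. It followed the order of HMOX1, with a flow difference of 0.48 ± 0.19 (adjusted p = 0.895) and a forskolin difference of -0.47 ± 0.19 (adjusted p = 0.266). TXNRD1, thioredoxin reductase, read 9.31 in PKHD1-/- flow and 9.52 in PKHD1+/- flow, 8.38 in PKHD1-/- forskolin and 8.93 in PKHD1+/- forskolin, against 9.50 in PKHD1-/- static and 9.20 in PKHD1+/- static. Its forskolin arrays were the lowest, by -0.70 ± 0.24 (adjusted p = 0.211), and its flow arrays overlap the static ones. Among 18 other NRF2 targets and regulators, none passed under flow or with forskolin in limma's test, with 1 higher and 1 lower under flow and 3 higher and 5 lower with forskolin at an unadjusted p under 0.05, against 3.29% and 2.67% of all genes under flow and 11.8% and 11.4% with forskolin. The median was 0.05 under flow and 0.03 with forskolin. PGD, of the pentose phosphate pathway, and PRDX1, a peroxidase, had the largest flow differences, 0.48 ± 0.15 and 0.45 ± 0.22. Metallothioneins, metal-binding proteins known to respond to metals and oxidants, were also higher under flow. Their summed intensity over 10 genes was 42935 in PKHD1-/- flow and 59471 in PKHD1+/- flow, against 4534 in PKHD1-/- static and 15854 in PKHD1+/- static, and all 10 were higher at an unadjusted p under 0.05 (3.29% of all genes) and 0 at an adjusted one. Their part in the HMOX1 difference was not tested.

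CYP1B1, a cytochrome P450 that the aryl hydrocarbon receptor and shear stress are known to induce, read 8.71 in PKHD1-/- flow and 9.38 in PKHD1+/- flow, 7.65 in PKHD1-/- forskolin and 7.51 in PKHD1+/- forskolin, against 7.90 in PKHD1-/- static and 8.12 in PKHD1+/- static. Flow arrays were the highest and forskolin arrays the lowest, with a flow difference of 1.03 ± 0.22, about 2.05-fold (adjusted p = 0.607), and a forskolin difference of -0.43 ± 0.22 (adjusted p = 0.355). CYP1A1, its close relative, was above background on both flow arrays and on no other, by both of its probes. It was at least 1.20-fold higher under flow by 1 probe and at least 1.08-fold by the other (adjusted p of the gene = 0.971), with levels of 6.13 in PKHD1-/- flow and 5.82 in PKHD1+/- flow, against 5.75 in PKHD1-/- static and 5.74 in PKHD1+/- static. The dimmest signal counted as above background was 5.728 in PKHD1+/- flow, against 5.781 in PKHD1-/- static and 5.798 in PKHD1+/- static. The second probe read 5.780 in PKHD1+/- flow, under both static limits. Its bound of 1.08-fold therefore rests on the PKHD1-/- flow array, at 6.021. No fold is given with forskolin, since neither side was above background. Of 5 other genes of the aryl hydrocarbon receptor response, 0 passed and 0 had an unadjusted p under 0.05 in limma's test. Their flow differences were small, led by the receptor AHR itself at -0.08 ± 0.07, with a median of -0.02.

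Both prostanoid enzymes were lower under flow in both pairs. PTGIS, the prostacyclin synthase, read 8.11 in PKHD1-/- flow and 8.21 in PKHD1+/- flow, 9.08 in PKHD1-/- forskolin and 9.08 in PKHD1+/- forskolin, against 8.96 in PKHD1-/- static and 8.87 in PKHD1+/- static. Both flow arrays lie well below the other 4, with a flow difference of -0.75 ± 0.08 (adjusted p = 0.454), about 1.69-fold lower. PTGS2, the inducible cyclooxygenase, read 5.93 in PKHD1-/- flow and 5.99 in PKHD1+/- flow, 5.86 in PKHD1-/- forskolin and 5.81 in PKHD1+/- forskolin, against 6.42 in PKHD1-/- static and 6.20 in PKHD1+/- static. Its differences were -0.35 ± 0.09 for flow (adjusted p = 0.700) and -0.48 ± 0.09 for forskolin (adjusted p = 0.105), and the second was 0.04 under 75th percentile scaling. The forskolin value is limited by background, since PTGS2 was above it on 1 of the 2 forskolin arrays. THBD, thrombomodulin, an anticoagulant receptor of endothelium, ranged from 6.53 to 6.77, with a flow difference of -0.13 ± 0.08. Among 13 other prostanoid genes none passed under flow in limma's test, with 2 higher and 1 lower at an unadjusted p under 0.05 (3.29% and 2.67% of all genes). PLA2G4A, the phospholipase that frees arachidonic acid, and TBXAS1, the thromboxane synthase, had the largest flow differences, -0.79 ± 0.12 and -0.65 ± 0.22.

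Genes outside the 36 that are known to respond to shear stress in endothelium were mostly lower under flow, whereas KLF4 and HMOX1 were higher. Of 15 other endothelial shear stress genes tested, 13 were below 0 under flow, with a median of -0.32, and 5 were lower at an unadjusted p under 0.05, against 2.67% of all genes, none of them past the threshold. The largest differences were those of CCL2, a chemokine, at -1.45 ± 0.17, and SMAD6, an inhibitor of BMP signalling, at -0.83 ± 0.12. With forskolin, 12 of the 15 were below 0 and the median was -0.40. SMAD7, an inhibitor of TGF-beta signalling, fell by 0.88 ± 0.07 on the log2 scale (adjusted p = 0.049). It was the 1 of the 15 past the threshold with forskolin, against 1.12% of all genes tested. The early response factors FOS and EGR1, which belong to these 15 and are singled out after their values were seen, differed with forskolin by -3.49 ± 0.49 (adjusted p = 0.075) and -2.08 ± 0.19 (adjusted p = 0.054). The summed intensity of 13 endothelial markers was 1227.8 in PKHD1-/- flow and 1339.0 in PKHD1+/- flow, 1592.9 in PKHD1-/- forskolin and 1515.3 in PKHD1+/- forskolin, against 1655.7 in PKHD1-/- static and 1719.5 in PKHD1+/- static. That of 16 skeletal and heart muscle markers was 39956 in PKHD1-/- flow and 23403 in PKHD1+/- flow, 107670 in PKHD1-/- forskolin and 97208 in PKHD1+/- forskolin, against 8576 in PKHD1-/- static and 2527.6 in PKHD1+/- static. All 16 muscle markers were above 0 in both comparisons. Of them, 9 passed the threshold with forskolin (ACTA1, TNNC2, MYH3, MYH8, TNNC1, TNNT1, SMPX, MYOG and CKM), against 1.12% of all genes tested. ACTA1, skeletal actin, was higher by 6.02 ± 0.37 (adjusted p = 0.043). EMCN, a sialomucin of endothelium, fell by 1.47 ± 0.09 with forskolin, and MT1E, a metallothionein, rose by 2.11 ± 0.13 (adjusted p = 0.043 for both). Their lists did not move with them. With forskolin 8 of the 13 endothelial markers were above 0 and 5 below, with a median of 0.03. Of the 10 metallothioneins, 3 were above 0 and 7 below, with a median of -0.19. Under flow 2 of the 13 endothelial markers were above 0 and 11 below, with a median of -0.22. At an unadjusted p under 0.05 in limma's test, 0 of the 13 were higher and 5 lower, against 3.29% and 2.67% of all genes. The part of these cell types in the flow and forskolin differences above was not tested.

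Counted over all 36, no gene passed the adjusted threshold of 0.05 in any comparison. Over all genes tested the share past it was 0% for genotype, 0% for flow and 1.12% for forskolin. Under flow, 4 of 36 were higher (11.1%, KLF4, KLF6, HMOX1 and CYP1B1) and 3 lower (8.33%, PIEZO1, PTGS2 and PTGIS) at an unadjusted p under 0.05, against 3.29% higher and 2.67% lower of all genes tested. With forskolin, 4 were higher (11.1%, ANKRD1, F3, TEAD1 and TEAD4) and 7 lower (19.4%, CCN1, CCN2, KLF4, PIEZO1, HMOX1, TXNRD1 and PTGS2, the last above background on 1 of 2 forskolin arrays), against 11.8% and 11.4% of all. Flow differences had the positive sign in 2 of 2 pairs for 13 of 36 and the negative sign for 7, against 21.3% and 24.0% of all genes. With forskolin 12 were positive and 17 negative in 2 of 2 pairs, against 37.0% and 35.1% of all. The flow and forskolin comparisons share the static arrays. The 36 genes were chosen with earlier results of these data known, so their shares beside those of all genes do not test the set.

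No gene of the 36 was called for genotype in limma's test. In PKHD1-/- organoids 1 of 36 was higher and 5 were lower in 3 of 3 pairs, against 11.7% and 9.11% of all genes tested. At an unadjusted p under 0.05, 0 were higher and 1 was lower, WWC1, against 1.93% and 1.30% of all. Fitted genotype differences ran from -0.29 to 0.11, and 32 of the 36 were smaller than 0.25 in size. The median over the 36 was -0.09 for genotype, 0.04 for flow and -0.06 for forskolin, against -0.00, -0.01 and 0.00 over all genes tested. Genotype differences in flow and in static culture tended to opposite signs, with a correlation of -0.65 across the 36 genes and -0.35 across the 16364 genes tested. The points of each share 4 arrays and genes are not independent replicates. CCN2 differed between PKHD1-/- and PKHD1+/- organoids by -1.999 in flow and by 0.46 and 0.67 in forskolin and static culture, and TEAD2 by -0.99, 0.01 and 0.64 in the same order. KLF2 differed by -0.86, -0.13 and 0.18, and CYP1B1 by -0.67, 0.13 and -0.22. These within-culture values come from single arrays and have no test.

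**Figure D5:**
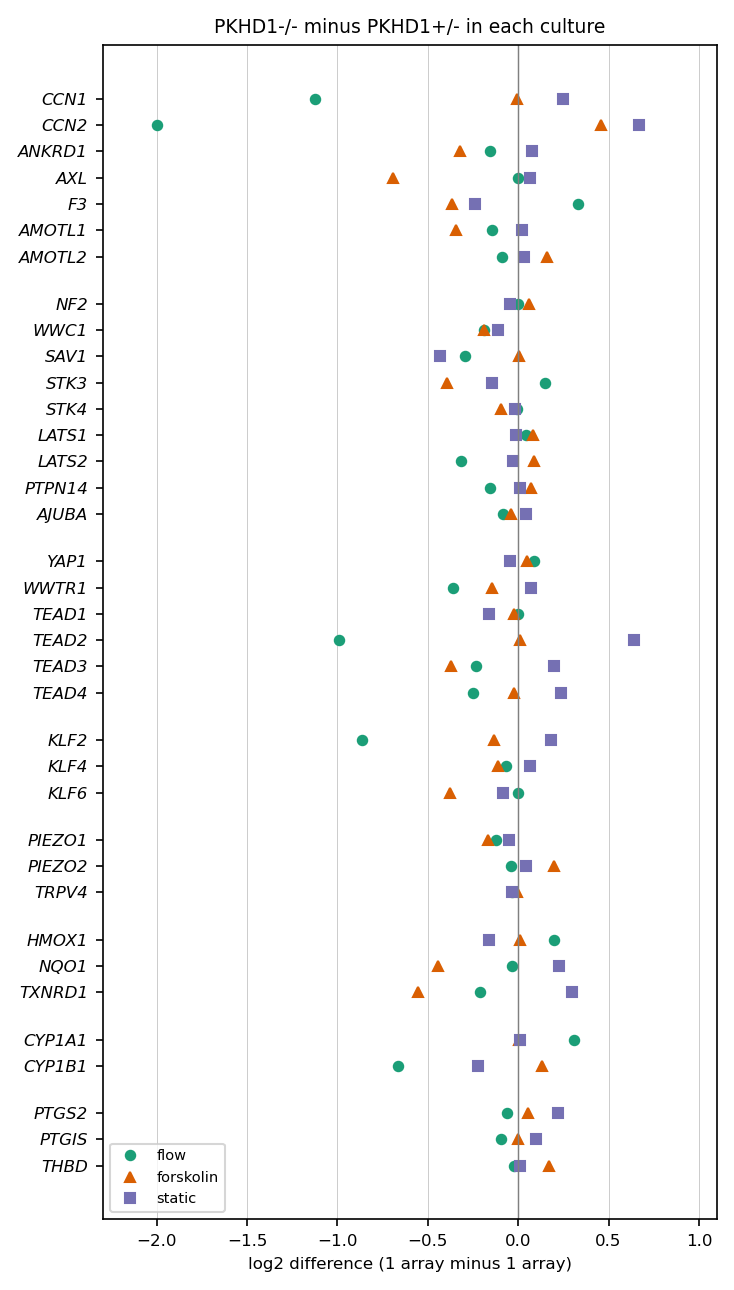
The plot gives the log2 difference of PKHD1-/- minus PKHD1+/- organoids (x axis) for the 36 genes (rows, by role) in flow (circles), forskolin (triangles) and static culture (squares), each 1 array minus 1 array. CCN1, CCN2, TEAD2 and KLF2 lie at -0.86 or below in flow and above 0 in static culture, while most other genes lie within 0.5 of 0.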

How the data were processed

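RNA from whole organoids was amplified, labelled with Cy5 and hybridised to single-colour 3D-Gene arrays, per the labels' protocols. The deposited scanner files hold the median intensity of each spot, per the file headers, with no background taken off. The authors' value table holds linear intensity scaled to a median of 25 on each array with the blank level subtracted, as found from the deposited values, and was used as an alternative.

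Spot medians were corrected with normexp (offset 50) and quantile normalized in limma 3.58.1 (R 4.3.3), probes were averaged by gene, and genes above background (blank mean plus 2 SD) on at least 2 arrays were kept, 16364 of 17446. A total of 4224 of 24460 probes without a gene symbol were left out. The fit was genotype plus culture over all 6 arrays with eBayes, 2-sided, with Benjamini-Hochberg adjustment and 2 residual degrees of freedom. It was tested on simulated data. Every one of the 36 genes is named, as are genes of other lists past the threshold or else the 2 with the largest difference. The members and lists were chosen with earlier results of these data known. With 1 array for each group, the number of arrays limits the precision. Alternatives changed the background correction, scaling, filter, probe choice, source of values, variance model, pairing and the arrays included.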

Additional observations from a re-analysis of the deposited data

Results flagged for a closer look

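For 3 of the 36 genes the flow response had opposite signs in the 2 genotypes, with each response at least 0.25 in size. The response in PKHD1-/- organoids minus that in PKHD1+/- organoids was -1.37 for CCN1, -2.67 for CCN2 and -1.63 for TEAD2. With forskolin this held for TEAD3, where the difference between the responses was -0.57. None of these differences between genotypes was tested, since each response is 1 array minus 1 array. Of all genes tested, 7.05% had opposite flow responses of that size and 2.15% had opposite forskolin responses.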

How the results depend on the processing

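The count of genes called for genotype was 0 under all 16 alternatives. The count for flow was 0 except with the authors' value table (29) and with a trended, robust variance (1), and ran from 0 to 0 with single arrays left out. The count for forskolin, 184, became 835 with an offset of 10, 6756 with 75th percentile scaling, 758 with the authors' value table, 76 with no filter, 1192 with the trended variance and 1093 without genotype in the model. It ran from 0 to 0 with single arrays left out, where fewer samples remain. Apart from the construction of each alternative, the cause was not tested. The forskolin calls split into 125 higher and 59 lower, against 5894 and 862 with 75th percentile scaling and 332 and 426 in the authors' value table. The 75th percentile scaling moved the median of all genes by 0.31 for forskolin, -0.11 for flow and 0.09 for genotype. None of the 36 genes was called in the fit described above, so no reversal of a called value could be seen among them. The signs of the 184 forskolin calls were not compared between alternatives. Among the 36 genes, none was called for genotype or flow under any alternative. The forskolin difference of CCN1 was called in 4, of CCN2 in 2 and of HMOX1 in 5 of 15 alternatives, and of PTGS2 in 2 of 13. Under 75th percentile scaling alone, AMOTL2, ANKRD1, CYP1A1, NF2, STK4, TEAD1, TEAD4, TXNRD1 and YAP1 were also called, STK4 (0.48) and CYP1A1 (0.55) with the opposite sign to -0.05 and -0.06. One sign held under all alternatives for 13 of 36 genes for genotype, 16 for flow and 17 for forskolin. Without the PKHD1-/- flow array the flow difference of CCN2 was 0.38, against -0.91 with it, and the flow difference of CCN1 was -0.35 without the PKHD1+/- flow array, against 0.28 with it. Genes near background, such as YAP1, CYP1A1 and PTGS2, have the least room to show a difference.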
